A study of Mus musculus with 10 samples.

Results

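The cytosolic ribosomal proteins were taken as every gene name of the deposited expression table that begins with Rps or Rpl followed by a number, together with Rplp0, Rplp1, Rplp2 and Rpsa. This gave 82 of 16875 names, and no 2 of the 82 carried the same values. Of the 83 protein-coding names of the GENCODE M21 annotation that fit the rule, 79 were members, 4 (Rpl10l, Rpl13, Rpl39l and Rpl3l) were not analysed here, and the other 3 members (Rps3a2, Rps3a3 and Rps4l) are annotated as pseudogenes. All 82 passed the minimum mean level of 0.5 FPKM that the test across genes required. FPKM count fragments relative to transcript length and to all fragments mapped, so that a level can be compared between genes of different length.

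RNA had been sequenced from 5 control and 5 Villin-WlscKO colon tumors of C57BL/6 mice, macrodissected after the carcinogen AOM and 3 cycles of 2% DSS and collected 120 days after AOM. The mice were 6 to 10 weeks old at the start. Wls encodes Wntless, the carrier that Wnt ligands need for secretion. Control tumors carried Wls flox/flox alleles and Villin-WlscKO tumors the same alleles with Villin-Cre ERT2, a tamoxifen-inducible recombinase of the intestinal epithelium, so stroma and immune cells within the tumor kept the gene. Villin-WlscKO mice received 5 injections of tamoxifen at 80 mg/kg that began 30 days before collection, and tumors without tamoxifen are given as the usual control in the study. Mice per group are not given, so n counts tumors and p-values measure the spread between tumors.

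The cytosolic ribosome joins a small subunit, which holds the messenger RNA and decodes it, to a large subunit, which forms the peptide bond and releases the chain through its exit tunnel. Each subunit is a shell of small basic proteins around ribosomal RNA, and most of these proteins are needed in equal number. Their messenger RNAs begin with a cytosine followed by a stretch of pyrimidines, the 5′ terminal oligopyrimidine (TOP) motif, through which mTOR and the RNA-binding protein Larp1 set how strongly they are translated. In the intestine, Wnt signaling and Myc are known to drive ribosome production in crypts and tumors, and the comparison shows how the messenger RNAs of this family stood in tumors whose epithelium had lost Wls. Messenger RNA levels do not show how much of each was translated.

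The motif is shown for members with a pyrimidine stretch across an annotated start and for 2 paralogs without one from the start base on. Each line gives 15 bases before and 15 bases from the RefSeq start site on GRCm38.p6, in the direction of the gene, and capitals mark the longest run of C or T inside the window from 5 bases before to 15 bases after the start, cut off at the edge of this window.
Rps6, chr4:86857353-86857382, minus strand: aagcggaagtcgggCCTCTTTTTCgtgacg
Rps10, chr17:27635230-27635259, minus strand: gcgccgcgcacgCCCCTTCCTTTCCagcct
Rpl35, chr2:39005117-39005146, minus strand: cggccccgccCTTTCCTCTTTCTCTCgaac
Rps27, chr3:90213634-90213663, minus strand: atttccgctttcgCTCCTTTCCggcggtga
Rps27l, chr9:66946071-66946100, plus strand: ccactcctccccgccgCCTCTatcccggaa
Rpl7l1, chr17:46782642-46782671, minus strand: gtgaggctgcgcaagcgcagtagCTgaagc
Promoter sequences were matched for 59 of the 82 members, with 70 annotated starts. An unbroken run of at least 5 C or T from the start base onward, searched on the gene's strand only, was present at 16 of these 70 starts (22.9%) and at 4.44% of 32851 starts of all genes. A run of at least 6 C or T between 5 bases before and 15 bases after the start was present at 30 starts (42.9%), against 17.6% of all starts. Only the part of a run inside this window was counted. Counted from the start base onward, the line of Rps27 holds 7 pyrimidines in a row, that of its paralog Rps27l 0 and that of Rpl7l1 1. The line of Rps27l also holds a run of 9, which ends upstream of the start base. At most annotated starts of members no run of at least 5 began at the start base. Whether these starts mark the first base of the messenger RNA was not tested.

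Wls was checked first. Its level was 76.4, 72.4, 61.3, 74.7 and 79.9 FPKM in control tumors 1 to 5 and 2.81, 11.6, 11.7, 3.61 and 2.03 FPKM in Villin-WlscKO tumors 1 to 5. All 5 Villin-WlscKO tumors were below all controls, and the groups averaged 72.9 ± 7.06 and 6.37 ± 4.89 FPKM (SD, n = 5 each). The groups also differed in other respects than Wls. Xist, the RNA of the inactive X chromosome, lay between 0.0366 and 0.420 FPKM in the controls and between 439 and 701 FPKM in the Villin-WlscKO tumors, so genotype, sex and tamoxifen cannot be told apart. Krt5, a keratin of stratified squamous epithelium, reached 470 FPKM in Villin-WlscKO tumor 2 and 669 FPKM in tumor 3 and was below 0.4 FPKM in every other tumor, and results that rest on these 2 tumors are also given without them. Fragments per library are unknown, since the table holds FPKM alone, and precision rests on the spread between tumors. In such whole-tumor RNA, fewer cells of a type and less RNA per cell cannot be told apart.

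None of the 82 ribosomal protein names passed the test across genes between Villin-WlscKO and control tumors. With limma on log2(FPKM + 1) and a Benjamini-Hochberg adjusted p under 0.05, 0 members were higher and 0 lower, whereas 10.9% of the 16757 genes tested were called. At an unadjusted p under 0.05 there were 4 members (4.88%), against 25.7% of all genes. The log2 change, Villin-WlscKO minus control, had a median of -0.016 over the members and 0.0073 over all genes. Of the members 32 were above and 50 below 0 (39.0% above 0, against 51.4% of all genes). The changes were also small in size: the median absolute log2 change was 0.061 for the members and 0.17 for all genes, and 76 of 82 members had an absolute log2 change of at most 0.25.

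The data bound the change of most members. The 95% interval of the log2 change lay wholly inside a 1.5-fold change in either direction for 69 of 82 members (84.1%), against 61.6% of all genes. Level bears on this comparison. Of the 1400 genes with a mean of 100 FPKM or more, 15.1% were called, their median absolute change was 0.15, and 70.1% had intervals inside 1.5-fold. The 43 members at that level had a median absolute change of 0.052, 0 of them were called, and 39 had intervals inside 1.5-fold. Only 1 of 82 members had groups that did not overlap, against 10.1% of all genes.

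**Figure D1:**
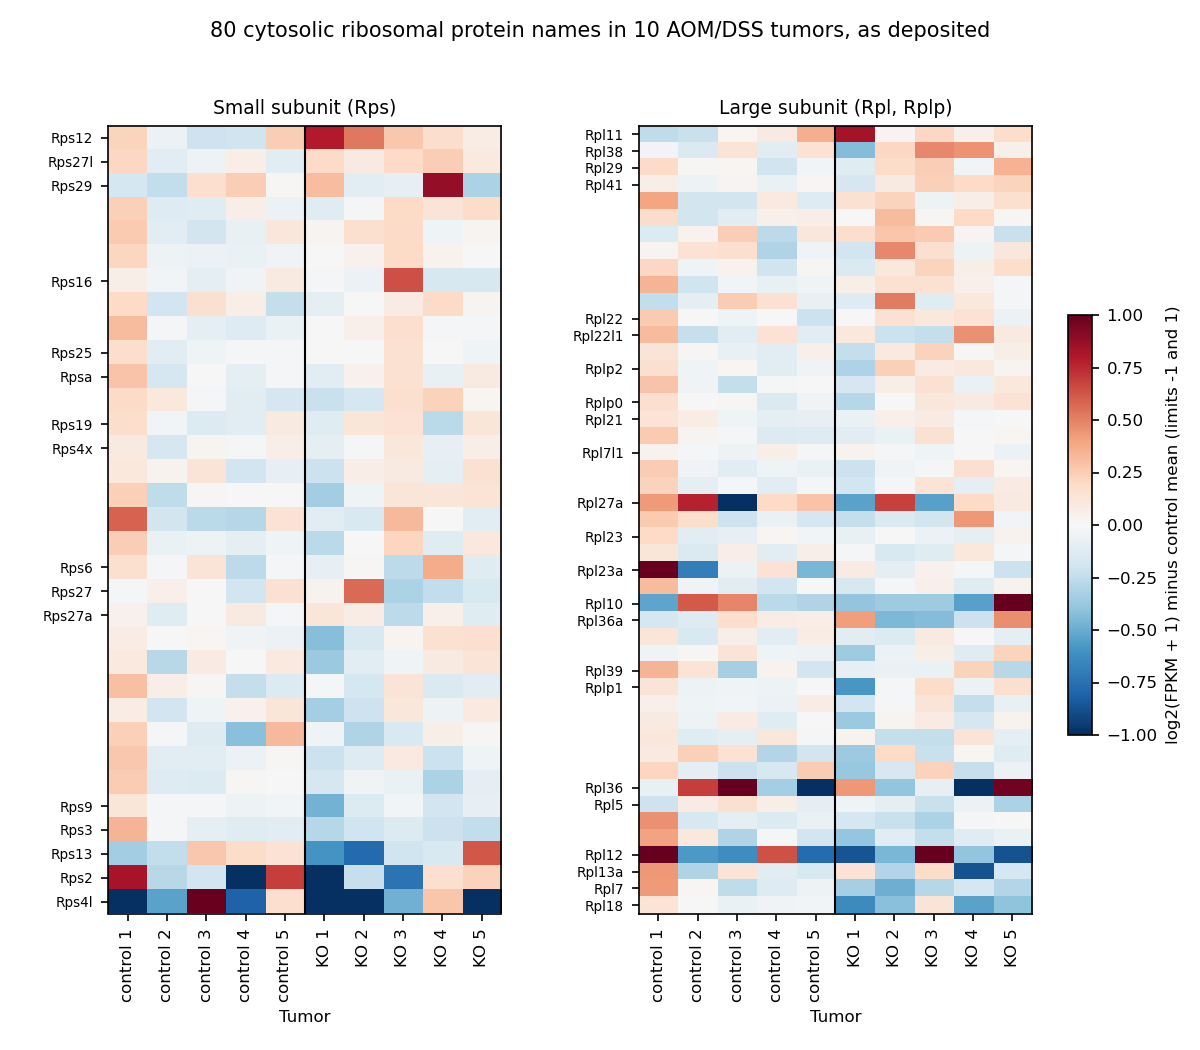
log2(FPKM + 1) of 80 of the 82 names (rows, ordered by log2 change, labelled where named) in each tumor (columns), minus the mean of the 5 control tumors; red is higher, blue is lower, and colors are limited at -1 and 1. Most rows stay pale across both groups, control tumor 1 is red in many rows, and strong colors are limited to a few names such as Rps2, Rps4l, Rpl10, Rpl12, Rpl27a and Rpl36.

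Proteins of the small subunit followed this pattern. The list of 33 small subunit names had a median log2 change of -0.0020, with 13 above 0. Rps6, the substrate of S6 kinase, stood at 2.69, 2.26, 2.60, 1.75 and 2.27 FPKM in the controls and at 2.11, 2.33, 1.75, 3.28 and 2.03 FPKM in the Villin-WlscKO tumors. Its groups overlapped, with Villin-WlscKO tumor 4 above every control, and the log2 change was -0.016 (SE 0.14, adjusted p = 0.96). The annotated pseudogene Rps6-ps4, which matches the Rps6 transcript over 750 bases, stood at 320 FPKM, so the value of Rps6 is uncertain. Rps19, the protein most often mutated in Diamond-Blackfan anemia, averaged 833 ± 78.2 FPKM in controls and 835 ± 102 FPKM in the Villin-WlscKO group (SD, n = 5 each), and its interval ran from -0.23 to 0.23. Rpsa, which is also the laminin receptor, averaged 858 ± 109 and 867 ± 66.8 FPKM. Rps27a, made as a fusion with ubiquitin, averaged 21.4 ± 1.18 and 21.04 ± 2.35 FPKM. The groups overlapped for Rps19, Rpsa and Rps27a.

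Rps3, whose values the small nucleolar RNA name Snord15b shares, was the member without overlap between groups. It lines the entry of the mRNA channel and also acts in DNA repair. It stood at 1143, 896, 843, 832 and 836 FPKM in control tumors 1 to 5 and at 743, 785, 823, 777 and 763 FPKM in Villin-WlscKO tumors 1 to 5. The gap between the lowest control and the highest Villin-WlscKO tumor was narrow, control tumor 1 stood far above the rest, and the log2 change of -0.22 (SE 0.096) did not pass the adjusted test (adjusted p = 0.19). Rps12, another protein of the small subunit, showed the largest positive change. Its FPKM were 5.14, 4.05, 3.55, 3.56 and 5.22 in controls and 8.12, 6.56, 5.34, 4.93 and 4.53 in the Villin-WlscKO group, which gave a log2 change of 0.37 (SE 0.16, adjusted p = 0.18). The groups overlapped in the range from 4.53 to 5.22 FPKM.

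The 42 names of the large subunit outside the stalk and the paralogs had a median log2 change of -0.039, with 15 above 0. Rpl18 showed the smallest adjusted p of all members. Control tumors stood at 373, 337, 324, 330 and 332 FPKM and Villin-WlscKO tumors at 218, 254, 371, 233 and 256 FPKM. Villin-WlscKO tumor 3, one of the 2 with high Krt5, lay among the controls, and the other 4 were below every control. The log2 change was -0.37 (SE 0.13, 95% interval -0.66 to -0.087) with an adjusted p of 0.096. Without Villin-WlscKO tumor 3 it was -0.50 (adjusted p = 0.0042), and without Villin-WlscKO tumors 2 and 3 it was -0.52 (adjusted p = 0.0085), so this call depends on a single tumor.

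Rpl7, a large subunit protein with affinity for RNA, stood next to Rpl18 in the order of changes. Controls stood at 679, 513, 424, 462 and 488 FPKM and Villin-WlscKO tumors at 403, 361, 415, 451 and 414 FPKM. Control tumor 1 was again the highest, and the log2 change of -0.31 (SE 0.12) did not pass (adjusted p = 0.13). Rpl5 and Rpl11, which bind the 5S ribosomal RNA and hold back Mdm2 when ribosome assembly fails, had opposite signs. Rpl5 averaged 9.54 ± 1.05 FPKM in controls and 8.51 ± 0.770 FPKM in Villin-WlscKO tumors, and Rpl11 averaged 6.07 ± 1.27 and 7.53 ± 2.204 FPKM (SD, n = 5 each). Neither passed the test, with adjusted p of 0.37 for Rpl5 and 0.40 for Rpl11.

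The stalk proteins, which recruit elongation factors to the large subunit, had a median log2 change of 0.012, with 0 called. Rplp0, often used as a reference gene, stood at 1079, 962, 965, 865 and 933 FPKM in controls and 785, 961, 1039, 1018 and 1057 FPKM in Villin-WlscKO tumors. Villin-WlscKO tumor 1 was the lowest of all 10 tumors and the rest of both groups overlapped, with a log2 change of 0.012 (SE 0.099, 95% interval -0.21 to 0.23). Rplp1 followed the same order at its low end, with 1688 FPKM in Villin-WlscKO tumor 1 and between 2428 and 2872 FPKM in the other 9 tumors. Rplp2 averaged 314 ± 22.8 and 322 ± 42.8 FPKM.

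No functional group within the subunits held a called member. All 8 proteins at the exit tunnel and its rim were below 0, with a median of -0.045, from Rpl17 at -0.15 to Rpl26 at -0.016. The 3 names around the peptidyl transferase center (Rpl3, Rpl8 and Rpl10) were also below 0, with a median of -0.078. After rescaling to an FPKM sum of 1000000, 6 of the 8 and all 3 were above 0, with medians of 0.053 and 0.028. The 9 names of the mRNA channel and decoding region had a median of -0.015, with 2 above 0, and 6 after rescaling. Of the 12 genes mutated in Diamond-Blackfan anemia, 6 were above and 6 below 0, with a median of 0.0015, and 11 were above 0 after rescaling. Of all genes, 51.4% were above 0 as deposited and 66.9% after rescaling. The members on the X chromosome were likewise not called in these groups of different Xist level. Rps4x, with 423 ± 29.5 FPKM in controls and 422 ± 26.6 FPKM in Villin-WlscKO tumors, had an interval from -0.16 to 0.16. Rpl10, Rpl36a and Rpl39 had log2 changes between -0.052 and -0.044. The interval of Rpl10 was wide, from -0.90 to 0.81, so its change is not closely bounded.

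**Figure D2:**
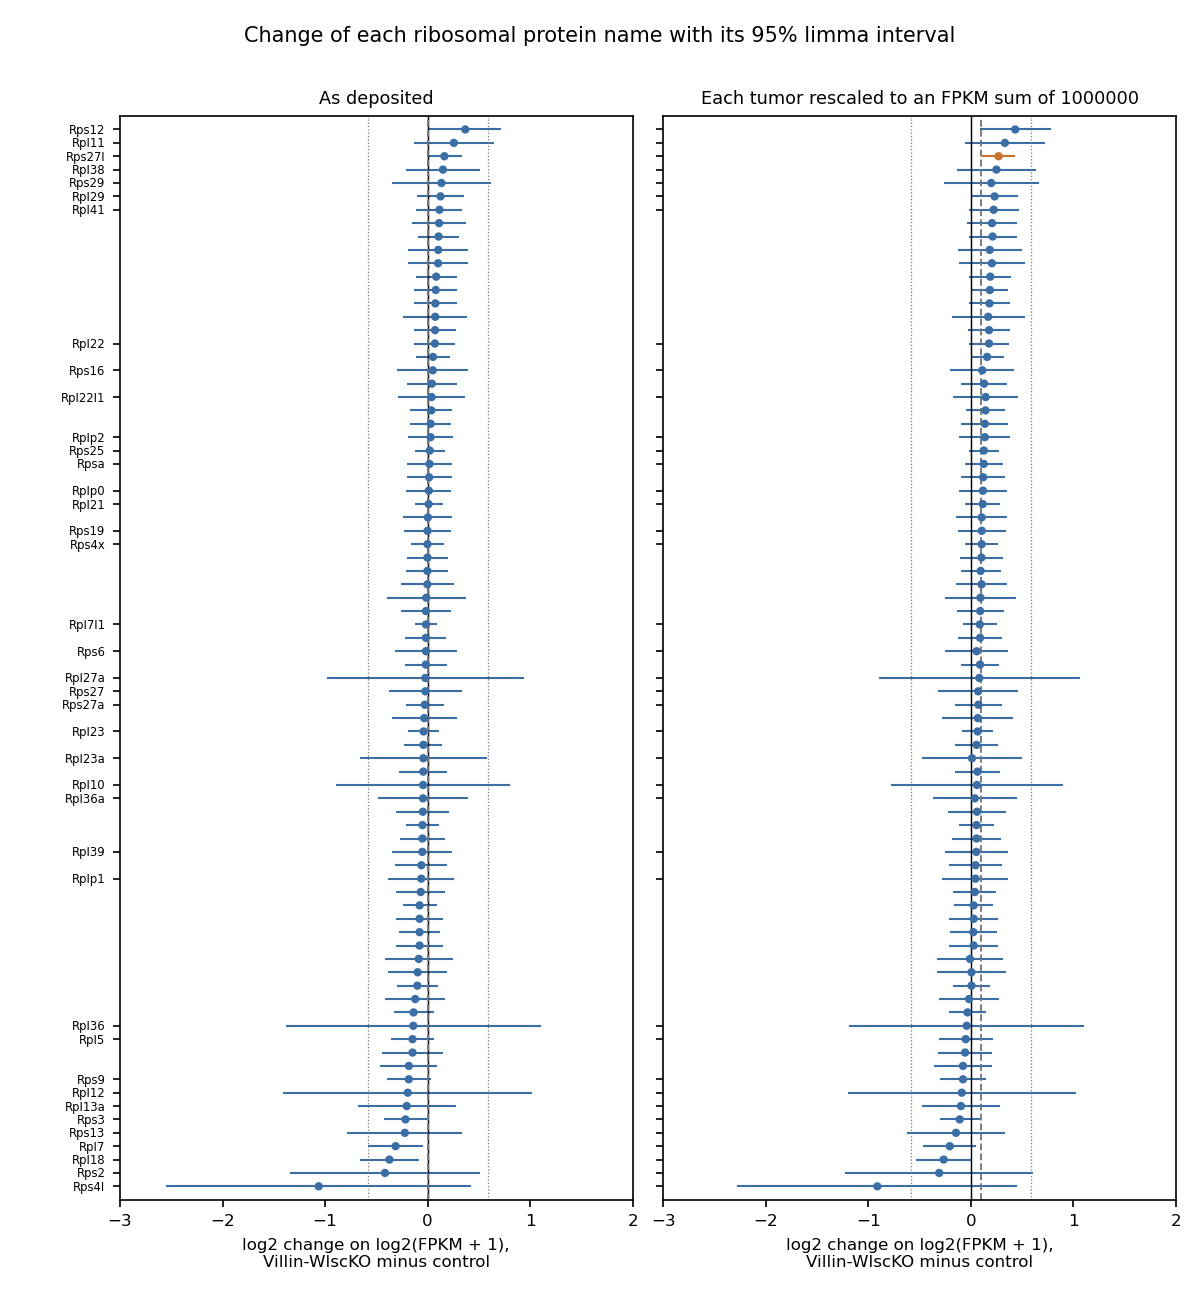
log2 change of 80 of the 82 names (labelled where named), Villin-WlscKO minus control, on log2(FPKM + 1), with its 95% limma interval (line), as deposited (left) and after each tumor was rescaled to an FPKM sum of 1000000 (right). The dashed line is the median of all genes tested, dotted lines mark a 1.5-fold change in either direction, and orange marks an adjusted p under 0.05. No name is called on the left, and Rps27l alone is called on the right.

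The sign of the family as a whole depended on how the tumors were scaled. The deposited values summed to between 1265990 and 1533880 FPKM in controls and between 1207680 and 1341490 FPKM in Villin-WlscKO tumors. After each tumor was rescaled to a sum of 1000000, 66 of 82 members (80.5%) were above 0, against 66.9% of all genes. The members' median was 0.088. The median of all genes shifted as well, to 0.097, so relative to all genes the members stood at -0.024 as deposited and at -0.0097 after rescaling. On this scale 10.7% of all genes were called, 8.27% of all genes as higher, and of the members 1 was higher and 0 lower. Calls over all genes shifted from 1026 higher and 796 lower as deposited to 1385 higher and 412 lower after rescaling.

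The member called after rescaling was Rps27l, a paralog of Rps27 that p53 is known to induce. As deposited it stood at 402, 322, 337, 366 and 324 FPKM in controls and at 398, 371, 400, 415 and 373 FPKM in Villin-WlscKO tumors. All 5 Villin-WlscKO tumors were above control tumors 2 to 5, and control tumor 1 sat among them. The log2 change was 0.16 (SE 0.076, adjusted p = 0.21) as deposited and 0.27 (SE 0.072, adjusted p = 0.035) after rescaling, where its groups did not overlap, as held for 10.8% of all genes. Control tumor 1 had the largest FPKM sum and was scaled down the most. The call was not kept when the annotated copy of Rps27l was added (log2 change 0.30, adjusted p = 0.052), or when names with identical values counted once in the sum (log2 change 0.19, adjusted p = 0.12).

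Eef1a1, the elongation factor that brings aminoacyl-tRNA to the ribosome and itself a TOP mRNA, weighed heavily in these sums. Its entry, whose values the name Gm26377 shares, stood at 313888, 211913, 270948, 261291 and 211213 FPKM in controls and at 195899, 145944, 168330, 133648 and 153239 FPKM in Villin-WlscKO tumors. These groups did not overlap. What part of the entry comes from Eef1a1 mRNA was not tested. Since 2 names carry the values, they entered the FPKM sum as 36.6% ± 3.298 in controls and 24.8% ± 2.96 in Villin-WlscKO tumors (SD, n = 5 each), and with identical names counted once throughout the table the entry made up 26.9% ± 3.05 and 17.3% ± 2.29. On the log2 scale its change was -0.67 (SE 0.47, adjusted p = 0.42) with the trended variance of the fit. The SE was 0.14 and the adjusted p 0.014 without the trend, and the adjusted p was 0.019 with robust eBayes and 0.018 among genes of at least 5 FPKM, so the call of this entry depends on these settings. When each tumor was rescaled to a sum of 1000000 with identical names counted once, the medians were 0.011 for members and 0.032 for all genes. On that scale 45 of 82 members were above 0 (54.9%, against 55.9% of all genes) and 0 were called, where 9.87% of all genes were. When the sum was taken without the members and without both names of this entry, the medians were -0.17 for members and -0.13 for all genes, and 7 members were called lower and 0 higher, where 13.6% of all genes were called lower. Quantile normalization gave medians of -0.13 and -0.046, with 14 members called lower and 0 higher, where 6.72% of all genes were called lower. Rps9, Rps3, Rpl18 and Rpl7 were called lower under both of these scalings, and Rps9 had the smallest adjusted p of the quantile fit, at 0.00094 with a log2 change of -0.46. As deposited Rps9 stood at 1737, 1573, 1573, 1538 and 1566 FPKM in controls and 1148, 1454, 1562, 1394 and 1508 FPKM in Villin-WlscKO tumors, where only 1 Villin-WlscKO tumor reached the range of the controls (log2 change -0.18, adjusted p = 0.27).

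**Figure D3:**
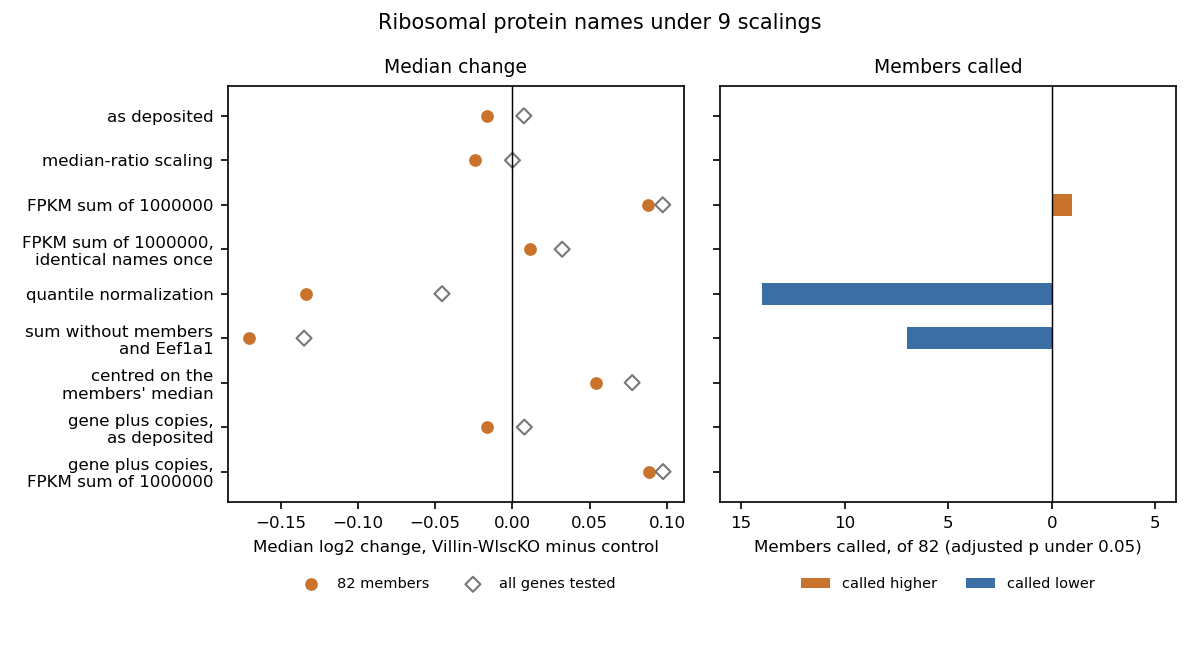
Left, median log2 change (Villin-WlscKO minus control) of the 82 names (filled circles) and of all genes tested (open diamonds) under 9 scalings. Right, number of names called higher (orange, right of 0) or lower (blue, left of 0) at an adjusted p under 0.05. The members' median lies below that of all genes under each of the 9, it lies on both sides of 0, and calls range from 14 lower under quantile normalization to 1 higher after rescaling to an FPKM sum of 1000000. Scalings that apply 1 factor per tumor shift members and all genes nearly alike, so the shared order of the medians is not repeated support.

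The summed level of the family showed the same dependence. The 82 names held 2.58%, 2.51%, 2.33%, 2.28% and 2.61% of the FPKM sum in control tumors 1 to 5 and 2.22%, 2.66%, 2.72%, 2.64% and 2.67% in Villin-WlscKO tumors 1 to 5. Of the Villin-WlscKO tumors, 4 stood above every control and tumor 1 below every control, with means of 2.46% ± 0.147 and 2.58% ± 0.205 (SD, n = 5 each). With identical names counted once in the sum, the means were 3.61% ± 0.209 and 3.58% ± 0.251, and the groups overlapped. With both names of the Eef1a1 entry left out of the sum the order turned, to 4.36%, 3.78%, 3.76%, 3.65% and 3.90% in controls and 3.16%, 3.49%, 3.63%, 3.39% and 3.48% in Villin-WlscKO tumors. Here all tumors without Wls lay under the lowest control, although the nearest tumors, at 3.65% and 3.63%, were almost level. With identical names counted once and Eef1a1 left out, the means were 4.94% ± 0.393 and 4.33% ± 0.217, again with every Villin-WlscKO tumor under every control. In FPKM, the members summed to 33935 ± 3221 in controls and 33009 ± 2827 in Villin-WlscKO tumors, a difference smaller than the spread within either group.

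**Figure D4:**
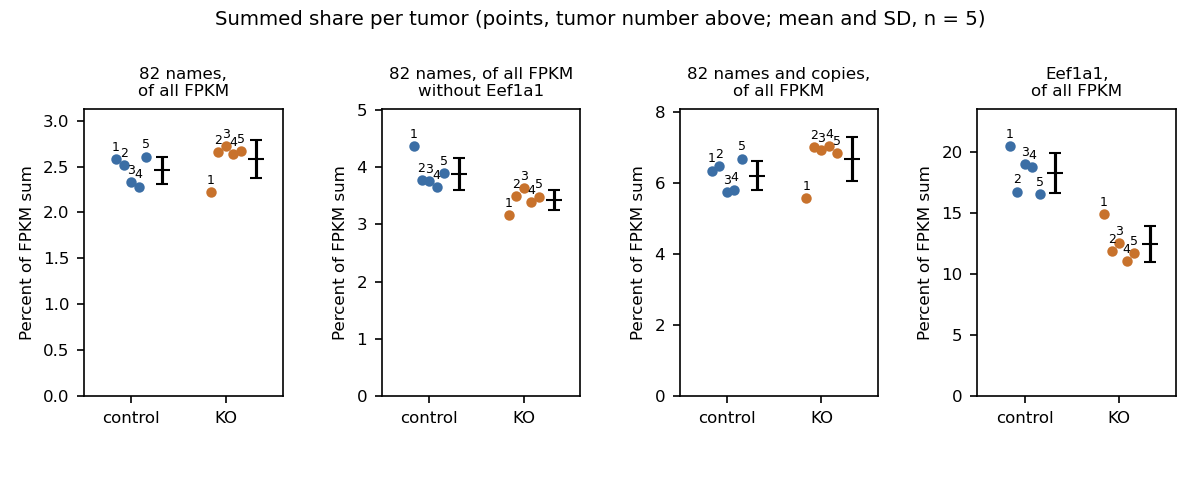
Percent of each tumor's FPKM sum held by the 82 names, by the 82 names with both names of the Eef1a1 entry left out of the sum, by the names with their pseudogene copies, and by the single name Eef1a1. Points are tumors, numbered, and bars are means and SD (n = 5). The share of the 82 names is 2.46% in controls and 2.58% in Villin-WlscKO tumors, and without Eef1a1 in the sum 3.89% and 3.43%.

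Tumors differed in how often they were the extreme for a member. As deposited, control tumor 1 was the highest of the 10 tumors for 40 of 82 members and Villin-WlscKO tumor 1 the lowest for 29. After rescaling, control tumor 1 was the highest for 8, and Villin-WlscKO tumors 2 and 4 were each the highest for 21. The median SD of log2(FPKM + 1) within a group was 0.16 for the members and 0.21 for all genes. Removing each tumor's own median of the members gave a median SD of 0.20.

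The steadiest member was Rpl7l1, a nucleolar relative of Rpl7, at 39.2, 37.6, 36.8, 39.8 and 37.6 FPKM in controls and 39.2, 37.6, 37.1, 38.3 and 36.6 FPKM in Villin-WlscKO tumors. Its SD within groups was 0.042 on the log2 scale, and its interval ran from -0.13 to 0.096. Rpl21, Rps25 and Rpl23 followed with SD between 0.081 and 0.094. The least steady were Rps4l (SD 1.204), Rpl36 (1.01), Rpl12 (0.99) and Rpl27a (0.78). Rps4l, a copy of Rps4x annotated as a pseudogene, stood at 27.8 FPKM in control tumor 3 and between 0.270 and 5.80 FPKM in the other 9. Rpl12 was at 68.3 and 41.7 FPKM in control tumors 1 and 4, at 83.4 FPKM in Villin-WlscKO tumor 3, and between 14.1 and 19.9 FPKM in the other 7.

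Several of these names do not stand for a ribosomal protein mRNA alone. Introns of ribosomal protein genes hold small nucleolar RNAs (snoRNAs), which guide the modification of ribosomal RNA. For some such loci the table gives several names the same value. Rpl4, also a snoRNA host gene, shared its values with no other name. The values of 18 members were also those of other names, and for 16 of them a snoRNA was among these. Rpl12 shared its values with Snora65, Rps2 with Snora64, Rpl10 with Snora70, Rps3 with Snord15b and Rpl13a with Snord32a, Snord33, Snord34 and Flt3l. Of the 10 members with the largest SD, 6 shared values with a snoRNA and 4 had a mean under 10 FPKM. Rpl23a was in both of these sets and Rpl36 in neither. The median SD was 0.19 for the 16 members that share a snoRNA's value and 0.16 for the other members. What part of such a value comes from the snoRNA was not tested.

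Levels of the members spanned a range from 0.978 FPKM for Rps13 to 3132 FPKM for Rpl13a as means of the 10 tumors. Other high members were Rpl41, Rplp1 and Rps9, at 2539, 2495 and 1505 FPKM. At the other end stood Rps13, Rpl23a, Rps16, Rps6 and Rps29, at 0.978, 0.983, 2.21, 2.31 and 2.61 FPKM. Counted by level, 15 members were under 10 FPKM, 24 from 10 to 100, 33 from 100 to 1000 and 10 above 1000 FPKM.

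Ribosomal protein mRNAs have left many processed pseudogenes in the mouse genome, intronless copies that can match the spliced mRNA base for base, and these copies held much of the signal. Annotated pseudogenes of the table that aligned to a member's transcript with at least 80% identity over at least 80% of their length numbered 201, and 70 of the 82 members had at least 1. For 40 members the copies summed to more than the gene. Rps29, on chr12:69157722-69159186, stood at 2.61 FPKM, and its copy Gm14303, on chr2:172509521-172509691, stood at 17592 FPKM and matched its transcript over all 171 bases. The copy Rps16-ps2 (chr5:129128077-129128517) matched Rps16 (chr7:28350652-28353155) over all 441 bases and stood at 910 FPKM against 2.21 FPKM for the gene. Rpl38-ps2, with 213 matching bases, stood at 2222 FPKM against 24.2 FPKM for Rpl38, and Gm15500, with 894 matching bases, at 293 FPKM against 9.03 FPKM for Rpl5. Fragments of such a gene and its copy cannot be told apart where the sequences are equal, so the value of each of these genes is uncertain by the value of its copy.

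With the 192 copies added whose value was not shared with a gene of another kind or counted already, the median member went from 108 to 674 FPKM, and members under 10 FPKM went from 15 to 3. Of the 15, 11 reached 100 FPKM or more. The 3 that remained were Rps4l, Rps27 and Rps12, at 5.08, 7.84 and 8.98 FPKM. The members and copies together held 6.20% ± 0.414 of the FPKM sum in controls and 6.67% ± 0.620 in Villin-WlscKO tumors (SD, n = 5 each), and with both Eef1a1 names left out of the sum 9.79% ± 0.606 and 8.87% ± 0.533, so the direction of this share depends on the sum as well. Rps29 with its copies alone stood at 15744 to 18118 FPKM in controls and 13144 to 19857 FPKM in Villin-WlscKO tumors. All members and copies averaged 85415 and 85280 FPKM, so this share leans on a single member. Compared between the groups, 0 of the 82 sums were called, where 11.1% of all genes tested in that fit were, and 3 had an unadjusted p under 0.05. The intervals tightened: 78 of 82 sums (95.1%) had intervals inside 1.5-fold. The change of Rpl11 went from 0.26 to 0.0011 with its 3 copies added, that of Rps13 from -0.22 to -0.030, and that of Rpl18 from -0.37 to -0.17 (adjusted p = 0.44), whereas Rpl7 stayed at -0.33 (adjusted p = 0.13).

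**Figure D5:**
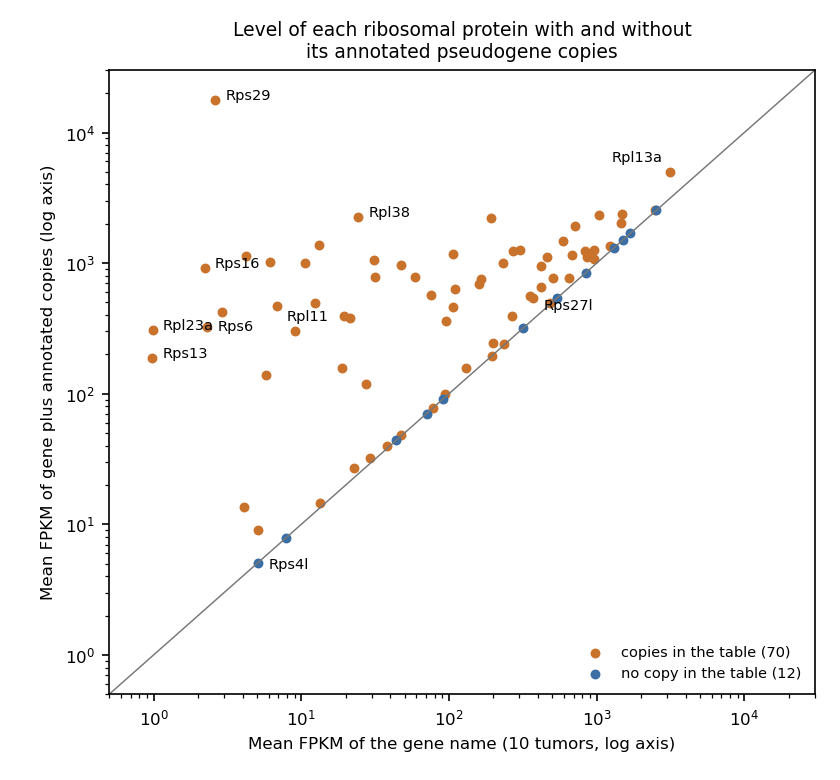
Mean FPKM over 10 tumors of each gene name (horizontal, log axis) against the mean of the gene plus its annotated pseudogene copies (vertical, log axis), with the line of equality. The 70 members with a copy in the table are orange. Rps29, Rps16, Rps13, Rps6 and Rpl23a are under 3 FPKM by name and above 180 FPKM with copies.

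Paralogs or copies of a ribosomal protein were compared with their partners within each tumor, as log2 of the ratio of FPKM + 1. The test was 2-sided exact permutation over the 252 arrangements of the 10 tumors. Whether any of them replaces its partner in the ribosome was not tested. Of 8 candidate pairs, 5 could be tested. Rpl22l1, which is known to rise when Rpl22 is lost, averaged 77.0 ± 12.55 FPKM in controls and 79.6 ± 16.3 FPKM in Villin-WlscKO tumors, against 491 ± 59.7 and 514 ± 33.0 FPKM for Rpl22. Their ratio averaged -2.66 ± 0.15 and -2.695 ± 0.31 (exact p = 0.84). For Rpl7l1 and Rpl7 it averaged -3.69 ± 0.24 and -3.40 ± 0.12, a difference of 0.30 with an exact p of 0.024 and 0.12 after Benjamini-Hochberg adjustment over the 5 pairs. Within this pair Rpl7l1 was the steadiest of all members, and Rpl7 held the difference. The ratios Rps27l to Rps27, Rpl36al to Rpl36a and Rps4l to Rps4x differed by 0.19, 0.15 and -1.06, with adjusted exact p of 0.70, 0.70 and 0.52. The partners Rps27 and Rpl36a are low by name, at 7.84 and 4.20 FPKM, and Rpl36a-ps2, which matches Rpl36a over 321 bases, stood at 1133 FPKM. Gm15421, a copy of Rpl22l1 at 99.5% identity, stood at 443 FPKM and was not used in the sums with copies. The level of Rpl22l1 and its ratio to Rpl22 are therefore uncertain by the value of this copy, also with copies added.

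Other proteins of translation were read against the 10.9% of all genes called as deposited. Of the proteins that sit on the ribosome under other names, Fau and Gnb2l1 (the receptor for activated C kinase) were not called, with log2 changes of 0.18 and -0.070. Of 7 elongation factors 0 were called as deposited, and Eef2k, the kinase that stops Eef2, was called higher after rescaling (0.62, adjusted p = 0.040). The 13 subunits of initiation factor 3 had a median of 0.023 and 0 calls. Among 20 cap-binding and other initiation factors 3 rose as deposited and 4 after rescaling. As deposited these were Eif4ebp1, the inhibitor of the cap-binding protein that mTOR switches off, from 24.3 ± 5.96 to 42.2 ± 7.15 FPKM (log2 change 0.78, adjusted p = 0.013), Eif2s2 from 42.1 ± 3.84 to 62.3 ± 8.44 FPKM (0.55, adjusted p = 0.0073), and Eif2s3x, an X-linked gene known to escape X inactivation, from 4.05 ± 0.511 to 6.19 ± 0.503 FPKM (0.51, adjusted p = 0.0079). Sex and genotype cannot be told apart for the last.

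Other TOP mRNAs gave 0 calls among 15, with a median of -0.052 and 11 below 0 as deposited. Their direction turned after rescaling, with a median of 0.052 and 10 above 0, where 66.9% of all genes were above 0. The widest in either direction were Tpt1, from 34.4 ± 7.403 to 24.4 ± 5.91 FPKM (log2 change -0.49, adjusted p = 0.13), and Ybx1, from 303 ± 24.3 to 346 ± 23.5 FPKM (0.19, adjusted p = 0.14), which was called higher after rescaling (adjusted p = 0.017). Of the 10 regulators of TOP translation Eif4ebp1 alone was called, while Larp1, Mtor, Rptor, Rps6kb1, Tsc1 and Tsc2 had changes between -0.12 and 0.13. Among 9 snoRNA host genes, which include Rpl13a, Rps3 and Rpl4, Snhg8 was lower (93.5 ± 2.59 to 76.4 ± 8.79 FPKM, log2 change -0.30, adjusted p = 0.035), and it was not called after rescaling (adjusted p = 0.18). Of 11 chaperones and quality-control factors of ribosomal proteins 0 were called, with a median of 0.068.

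Mitochondrial ribosomal proteins, which serve the separate ribosome of mitochondria, offered the closest comparison in kind. Of 77 names 60 were above 0 as deposited, against 32 of 82 for the cytosolic set and 51.4% of all genes. Their median was 0.087, against -0.016 for the cytosolic set. After rescaling, 73 of 77 were above 0 with a median of 0.19, where 66.9% of all genes were above 0. The single call as deposited was Mrps12, lower at 44.0 ± 3.13 against 56.6 ± 5.26 FPKM (log2 change -0.35, adjusted p = 0.017), and it was lost after rescaling, where 2 other names were called higher. The difference between both families was not tested.

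Markers of cell types moved beside these values. Of 5 T cell markers 4 were called higher (Cd3d, Cd3e, Cd3g and Cd8a), and their summed level ran from 3.52 to 8.64 FPKM in controls and from 8.23 to 17.8 FPKM in Villin-WlscKO tumors. Of 5 goblet cell markers 2 were called higher (Muc2 and Spink4), with sums from 2379 to 10916 FPKM and from 21575 to 26200 FPKM, and of 5 B and plasma cell markers Mzb1 was called. As deposited, the T cell and the goblet cell list each had 4 markers above 0 and 1 below 0. After rescaling, 5 T cell and 4 goblet cell markers were above 0. The 5 proliferation markers gave 0 calls, with sums from 142 to 198 FPKM and from 140.4 to 184 FPKM. The 7 pan-epithelial markers, 5 squamous, 5 macrophage, 4 neutrophil, 5 fibroblast, 4 smooth muscle and 3 endothelial markers also gave 0 calls as deposited, and no marker was at 0 in all tumors. Epithelial markers were abundant in every tumor, at a sum of at least 5974 FPKM. The part of cell composition in the ribosomal protein levels was not tested.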

How the data were processed

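The authors mapped stranded reads to GRCm38.p5 with TopHat 2.1.1 and made the deposited FPKM with Cufflinks 2.2.1 and Cuffdiff at default parameters; the annotation release and the handling of fragments with several matches are not given in the sources used here. All 10 columns were assigned by their labels and 0 were left over. Depth is unknown. Genes with a mean of at least 0.5 FPKM were compared with limma 3.58.1 (R 4.3.3) on log2(FPKM + 1) with a variance trend, over all 16757 genes, at a Benjamini-Hochberg adjusted p under 0.05, and the fit was tested on simulated data. Levels are given in FPKM and changes on the log2(FPKM + 1) scale, which understates the change of low genes. Paralog ratios used exact permutation tests (scipy 1.17.1, Python 3.11.15). Copies were found by aligning GENCODE M21 transcripts with blastn 2.17.0; Gm6472 and Rpl7a-ps12 share a value that entered 2 sums. Start sequences are those of RefSeq on GRCm38.p6.

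Named members were the 5 highest and 5 lowest in mean FPKM, the 6 largest rises and falls, every called member on the deposited and rescaled scales, the 4 largest and 4 smallest SD, tested paralogs and partners, X-linked members and a fixed set of well-known proteins; Rpl17, Rpl26, Rpl3 and Rpl8 are members of listed groups, and others called under a single scaling were named after their values were seen. Some names that entered every fit and count are not reported here. The members, the 18 gene lists and 11 marker lists were chosen with earlier results of these data known. Alternatives were other scalings, pseudocounts, filters, variance models, a replicate block, identical entries counted once and tumors left out. Added after the data had been seen were sums with copies and the rescaling with identical names counted once in the sum. The share with identical names counted once and Eef1a1 left out was also added then. The plan for the summed share counted each set of identical entries once, whereas the share given first counts every name.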

Additional observations from a re-analysis of the deposited data

Results flagged for a closer look

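For each of 80 members and each group the gap of the most extreme of the 5 tumors to its neighbor, on log2(FPKM + 1), was set against Dixon's limit of 0.71 of the range, which chance passes in about 1 of 20 groups; 17 of 160 groups passed. Of these, 9 were high values of control tumor 1, and values of a tumor share its library. They were Rpl17 at 6.31 FPKM, Rpl18 at 373, Rpl26 at 499, Rpl4 at 1014, Rps15 at 1771, Rps18 at 593, Rps24 at 308, Rps3 at 1143 and Rps9 at 1737 FPKM, where the next control tumor stood at 4.09, 337, 410, 856, 1451, 467, 259, 896 and 1573 FPKM. Control tumor 1 also had the highest FPKM sum and the highest Eef1a1 level.

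In Villin-WlscKO tumor 3, Rpl12 (83.4 FPKM), Rps16 (3.87 FPKM), Rps24 (304 FPKM) and Rps25 (176 FPKM) stood above the rest of their group. Rpl11 was high in Villin-WlscKO tumor 1 (11.4 FPKM) and Rpl10 in Villin-WlscKO tumor 5 (118 FPKM, next 33.6 FPKM). Rpl27a was low in control tumor 3 (30.5 FPKM, next 115 FPKM), and Rps15a was low in control tumor 2 (875 FPKM, next 1061 FPKM). Rpl12, Rpl10 and Rpl27a are among the names that share their values with a snoRNA.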

How the results depend on the processing

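The count of 0 members higher and 0 lower stayed at 0 and 0 under median-ratio scaling, centring on the members' median, a pseudocount of 0.1, no filter, a mean of at least 5 FPKM (where fewer members entered), no trend, robust eBayes, quality weights, identical entries once, rescaling with identical entries once in the sum and sums with copies. Exceptions were 1 higher after rescaling to 1000000, 7 lower with members and Eef1a1 left out of the sum, 14 lower under quantile normalization, and 1 lower (Rpl18) without Villin-WlscKO tumors 2 and 3. With 1 tumor left out in turn, 0 to 1 members were lower, the 1 being Rpl18 without Villin-WlscKO tumor 3. Centring on the members' median removes a change that all members share, so its 0 calls cannot speak to such a change. It also raised the members' median SE from 0.106 to 0.150.

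Calls over all genes numbered 1822, and 3055 with members and Eef1a1 left out of the sum, 885 centred on the members and 1092 without Villin-WlscKO tumors 2 and 3. The members' median ran from -0.030 to 0.040 with 1 tumor left out. The difference in summed share, 0.12 percentage points, was -0.46 without both Eef1a1 names, -0.026 with identical entries once, -0.62 with identical entries once and no Eef1a1, 0.47 with copies and -0.93 with copies and no Eef1a1. The cause was not tested. Of the 5 paralog ratios 0 passed with a pseudocount of 0.1, with copies or with 1 tumor left out. The block, whose smallest p is 0.0625, could not pass, and without Villin-WlscKO tumors 2 and 3 the smallest p before adjustment is 0.036.

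Tumors share only a replicate number: the correlations of their deviations by number were 0.064, -0.087, 0.063, 0.10 and 0.16. With the replicate block, limma called 1627 genes, 0 members higher and 0 lower. A block over balanced pairs cannot move a mean difference, so the members' median of -0.016 and the paralog differences are the same with it, -0.032 for Rpl22l1, 0.19 for Rps27l, 0.30 for Rpl7l1, 0.15 for Rpl36al and -1.06 for Rps4l. Depth could not be recovered from FPKM, so the counting error of low members such as Rps13 could not be estimated.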
